A study of Homo sapiens with 12 samples.

Results

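The mRNA of 3 immunoglobulin receptors, FCAMR, PIGR and FCGRT, was examined in human proximal tubular cells (HPTCs) that received IL-1β or empagliflozin (Empa). The genes were chosen by their values on these arrays, namely the IL-1β and the Empa array of each slide against the control array of that slide, so these differences are given as a description and are not tested. The array names 3 genes with 4 probes for this choice, FCAMR with 2 and the others with 1 each, out of 34127 probes and 25992 gene names, and all 3 genes are among the 15878 whose signal passed a filter on dim probes. FCAMR and PIGR passed that filter through their IL-1β arrays alone.

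RNA was hybridized to 12 one-color oligonucleotide arrays. Both lines come from the human proximal tubule, HK-2 made immortal by papillomavirus genes and RPTEC/TERT1 by telomerase, so each stands for a single established line grown in a medium of its own. After 24 h without serum and supplements they were kept for another 24 h without addition (control), with 10 ng/mL of IL-1β or with 500 nM of Empa, each line and treatment in biological duplicates, which makes 6 groups of 2 arrays. IL-1β is a pro-inflammatory cytokine, Empa inhibits the sodium-glucose cotransporter SGLT2, no array carries cells that received both, and the labels name no immunoglobulin among the additions.

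Receptors of the FCAMR and PIGR kind bind the joined forms of IgM and IgA. PIGR, the polymeric immunoglobulin receptor of epithelia, carries IgA and IgM from the basal to the apical side, where its cut ectodomain is released as secretory component, and FCAMR encodes a receptor for the Fc part of IgA and IgM that is known from B cells, follicular dendritic cells and kidney. FCGRT encodes the heavy chain of the neonatal Fc receptor (FcRn), which pairs with β2-microglobulin, binds IgG and albumin in acid endosomes and returns them from degradation, and in the proximal tubule it takes part in the recovery of filtered albumin and IgG.

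Levels are background-subtracted signals on the log2 scale relative to the 75th percentile of the array, with a floor of 1 signal unit, which lies at -8.67. The percentile lay between 295 and 735 signal units, and the share of probes well above background ranged from 53.0% to 63.3% by array. A probe that is not well above background has no measured size on that array, and a fold against it is a lower bound, taken against the higher of the probe's own signal and the lowest signal of any probe well above background on that array. The number of arrays limits the precision. Levels of different probes are not read as amounts of different transcripts, since each probe has its own binding strength.

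Each of the 4 slides held the control, IL-1β and Empa array of 1 line and replicate number. The lines were taken from the sample titles, whereas the source field gives HK-2 throughout. Over the 15324 probes well above background on every array, the control labelled HK-2 replicate 1 correlated with r = 0.984 with that labelled RPTEC/TERT1 replicate 2, and the control labelled RPTEC/TERT1 replicate 1 with r = 0.973 with that labelled HK-2 replicate 2. The control arrays that share a label correlated with r = 0.880 for HK-2 and 0.875 for RPTEC/TERT1. Probes are not replicates, so these r describe likeness only. The slides therefore resemble each other in pairs that cross the labels, and below a line name refers to the label of an array. Of 14 proximal tubule markers on the array, 11 were well above background on at least 1 array and 6 on all 12, while the glucose transporter gene SLC5A1, the transcription factor gene HNF4A and the anion transporter gene SLC22A6 were so on none. ANPEP was well above background only on the 6 arrays of HK-2 replicate 1 and RPTEC/TERT1 replicate 2.

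The arrays read each transcript through a probe of 60 bases, and its first 30 bases are shown because all levels below rest on these 4 probes.
FCAMR probe: aaatagaagaggcttccaatcagtgtggaa
FCAMR second probe: aaatcctcccacaagcaacgccagtttcta
PIGR probe: tctccagaaagctaaaatttaatttctttt
FCGRT probe: ctgtggtctgcctcagtttcccctcctaat
The FCAMR probe lies at chr1:207131511-207131570 and the second FCAMR probe at chr1:207133996-207134055, both on the minus strand of hg19. The PIGR probe lies at chr1:207101935-207101994 on the same strand, 29.5 kb from the FCAMR probe, and the FCGRT probe at chr19:50029511-50029570 on the plus strand. The array annotation names the gene of each probe and not the exon.

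With IL-1β the FCAMR transcript was far above its control on every slide. Its level was -7.46 without a ligand, 0.72 with IL-1β and -8.67 with Empa in HK-2 replicate 1, and -5.31, 0.15 and -5.85 in HK-2 replicate 2. In RPTEC/TERT1 replicate 1 the levels of FCAMR were -6.63, 0.28 and -6.79, and in RPTEC/TERT1 replicate 2 they were -8.67, 1.72 and -8.67, in the same order. The 4 IL-1β arrays were high, and the 8 others were low and not well above background. FCAMR was chosen by these values, so this separation is a description and not a separate result. IL-1β over control amounted to at least 89.4-fold and at least 44-fold in replicates 1 and 2 of HK-2, and to at least 84.8-fold and at least 162-fold in those of RPTEC/TERT1. Over the 4 slides the bound for FCAMR was at least 85.8-fold, with a mean level of 0.72 ± 0.71 (SD, n = 4) with IL-1β. These bounds hold for the background subtraction used here, and the mean log2 difference was 3.34 after background correction by normexp with quantile normalization and 2.97 in the authors' table, both below the bound of 6.42 on this scale.

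The second FCAMR probe was higher with IL-1β on every slide too. Its level with IL-1β was -2.92 in HK-2 replicate 1, -4.97 in HK-2 replicate 2, -3.96 in RPTEC/TERT1 replicate 1 and -2.71 in RPTEC/TERT1 replicate 2. The control levels of this probe were -6.10, -7.39, -6.48 and -6.55, and those with Empa -5.52, -6.77, -6.83 and -8.67, in the same order of slides. The probe was well above background on the 4 IL-1β arrays alone, which stood above all others. This too is only a description, since the gene was chosen by such values. Its bounds were at least 7.17-fold, 1.60-fold, 4.48-fold and 7.52-fold, so both probes of FCAMR have the same direction with IL-1β on each slide and differ in the size that can be given. The mean log2 difference of this probe was 0.64 after normexp and 0.48 in the authors' table, below its bound of 2.15 over the slides, so these bounds too hold only for the background subtraction used here.

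PIGR was higher with IL-1β than in the control on the 3 slides on which its IL-1β array was well above background, and its level depended on the slide. In HK-2 replicate 1 the PIGR level was -4.37 without a ligand, 0.48 with IL-1β and -5.86 with Empa, and in RPTEC/TERT1 replicate 2 it was -4.69, 1.17 and -5.32. In HK-2 replicate 2 it was -5.72, -4.18 and -8.67, and in RPTEC/TERT1 replicate 1 it was -8.11, -5.06 and -8.67. The IL-1β arrays of HK-2 replicate 1 and RPTEC/TERT1 replicate 2 were high, whereas that of RPTEC/TERT1 replicate 1 lay within the range of the controls and that of HK-2 replicate 2 just above it, so the groups overlap unless each array is set against its own slide. PIGR was well above background on 3 arrays, those with IL-1β of HK-2 replicates 1 and 2 and of RPTEC/TERT1 replicate 2. IL-1β over control was at least 28.8-fold and at least 2.78-fold in replicates 1 and 2 of HK-2 and at least 58.1-fold in replicate 2 of RPTEC/TERT1, and no fold can be given for its replicate 1. Over the 4 slides the mean log2 difference of PIGR was 3.83 on this scale, against controls not well above background. It was 1.73 after normexp and 1.34 in the authors' table, so the PIGR bounds too hold only for the background subtraction used here. The study lists PIGR among its own genes chosen on these samples, which is not an independent observation.

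FCGRT was lower with IL-1β and well above background on every array. In HK-2 replicate 1 its level was 5.50 without a ligand and 4.48 with IL-1β, and in HK-2 replicate 2 it was 2.68 and 1.40. It was 2.18 and 1.22 in RPTEC/TERT1 replicate 1, and 5.61 and 4.55 in RPTEC/TERT1 replicate 2. The IL-1β array was the lower one on 4 of 4 slides, and the levels of HK-2 replicate 1 and RPTEC/TERT1 replicate 2 were high under both conditions, above all levels of the other slides. IL-1β over control was 0.493-fold, 0.412-fold, 0.517-fold and 0.481-fold in HK-2 replicates 1 and 2 and RPTEC/TERT1 replicates 1 and 2. The mean log2 difference of FCGRT was -1.08 ± 0.14 (SD, n = 4), a narrow spread beside control levels that range from 2.18 to 5.61. In bulk RNA, fewer cells with a transcript and less of it per cell cannot be told apart.

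With Empa neither FCAMR nor PIGR was well above background on any array, nor were their controls, so no fold is given for either. The PIGR signals with Empa were below those of the controls on 4 of 4 slides and the FCAMR signals on 3, with the floor on both arrays of RPTEC/TERT1 replicate 2, but signals at this depth have no measured order. FCGRT with Empa had levels of 1.90 in HK-2 replicate 2, 1.80 in RPTEC/TERT1 replicate 1 and 4.88 in RPTEC/TERT1 replicate 2. These are 0.584-fold, 0.771-fold and 0.602-fold of their controls, with a mean log2 difference of -0.63 ± 0.22 (SD, n = 3), so the Empa array was lower on the 3 slides that were used. The FCGRT spot of HK-2 replicate 1 with Empa was marked as an outlier and left out, and with its value of 5.26 it would also be below its control, at 0.845-fold.

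**Figure D1:**
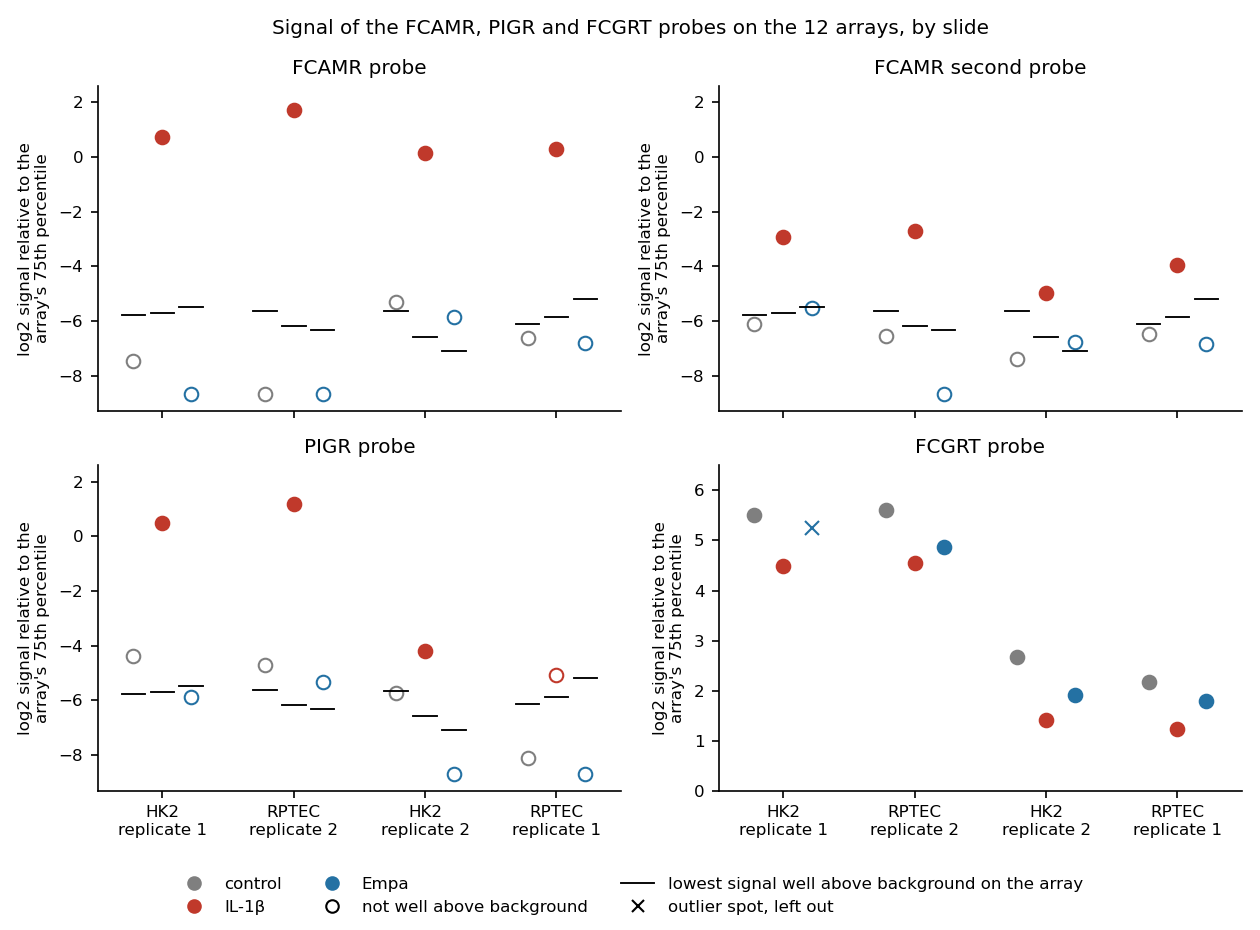
Levels of the 4 probes on the 12 arrays, in log2 relative to the 75th percentile of the array, by slide. Gray, red and blue points are control, IL-1β and Empa arrays, open points are not well above background, black bars mark the lowest signal well above background on an array and the cross is the outlier spot. The FCAMR points with IL-1β lie between 0.15 and 1.72 above open points only, and the FCGRT points with IL-1β lie below their controls on 4 of 4 slides.

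For background, limma with the slide as a block called 2000 of the 15878 genes tested with IL-1β, which is 12.6%, with 762 (4.8%) higher and 1238 (7.8%) lower. The split was 998 higher and 977 lower after normexp with quantile normalization. The same fit without the replicate block called 7 genes, with 1199 at an unadjusted p under 0.05, so every call of a listed gene below rests on the comparison within slides. For Empa it called 1 gene (0.0063%), with 1899 at an unadjusted p under 0.05 and 0 genes without the block, and this gene, named after its values were seen, was DHRS2 (higher with Empa, limma adjusted p = 0.0200), which was well above background on 7 of 12 arrays, so that no size is given. The FCAMR, PIGR and FCGRT differences of these contrasts chose the genes, and nothing is read from their place in these counts. The median log2 difference over all genes was -0.10 for IL-1β and -0.02 for Empa.

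FCGRT, which was well above background on every array, could be compared between the labelled lines. The differences in the treatment effects are made from the within-slide values that chose the gene. They are therefore given as a description and are not tested. The difference between RPTEC/TERT1 and HK-2 was 0.14 (SE 0.35) in the IL-1β effect and 0.16 (SE 0.42) in the Empa effect on the log2 scale. The control level did not choose the gene and was tested. The control level differed by -0.20 (SE 1.88, limma adjusted p = 1), each label holding 1 slide with a high and 1 with a low level, and the sign of this value turned when single arrays were left out. FCAMR and PIGR were not well above background on any control or Empa array, so no such difference is given for them. Over all genes limma called 0 for each of these 3 comparisons, with 282, 162 and 189 at an unadjusted p under 0.05. With 2 slides per label and adjustment over all genes, a difference well above these standard errors could also go unseen. The slides resemble each other in pairs that cross the labels, so each label holds 1 slide of either pair. These counts therefore cannot decide whether the lines differ.

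FCAMR and PIGR are neighbors on chromosome 1, so the sequence before their start sites is shown, with that of FCGRT for comparison. Each window holds the 250 bases before the start of the gene from RefSeq on GRCh38.p14, another build than that of the probes. All 3 genes were matched, FCAMR with 2 windows, of which the one with a match is printed. Searched on both strands were the κB motif by its name, the AP-1 motif TGANTCA and the E-box CACGTG, which do not overlap in these windows, and capitals mark a match.
FCAMR, chr1:206970461-206970710, minus strand: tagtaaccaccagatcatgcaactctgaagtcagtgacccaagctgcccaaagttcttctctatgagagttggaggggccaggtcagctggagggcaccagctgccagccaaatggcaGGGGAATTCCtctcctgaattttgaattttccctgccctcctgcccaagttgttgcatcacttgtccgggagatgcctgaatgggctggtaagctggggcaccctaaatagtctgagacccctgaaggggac
PIGR, chr1:206946467-206946716, minus strand: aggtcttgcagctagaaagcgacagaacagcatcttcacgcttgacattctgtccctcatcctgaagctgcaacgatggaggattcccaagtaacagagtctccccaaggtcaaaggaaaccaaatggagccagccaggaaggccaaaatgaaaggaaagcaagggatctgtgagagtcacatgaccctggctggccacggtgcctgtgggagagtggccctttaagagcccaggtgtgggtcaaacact
FCGRT, chr19:49512411-49512660, plus strand: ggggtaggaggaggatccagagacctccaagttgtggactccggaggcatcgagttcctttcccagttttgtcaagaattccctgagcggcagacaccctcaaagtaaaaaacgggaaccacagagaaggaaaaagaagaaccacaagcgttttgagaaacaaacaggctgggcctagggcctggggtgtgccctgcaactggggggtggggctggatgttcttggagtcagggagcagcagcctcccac
The FCAMR window holds 1 κB match, GGGGAATTCC, which begins 132 bases before the start. The other windows hold 0 matches of the 3 motifs. Of all 35116 windows of this length, 5.21% hold the κB motif, 6.57% the AP-1 motif and 6.34% the E-box. A match describes letters and not a bound site.

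The other Fc receptors were mostly dim. Of 20 Fc receptor genes on the array, 8 were well above background on no array and 3 on all 12, and 6 could be tested, of which 0 passed for IL-1β (limma, adjusted p from 0.125 to 0.885, list median 0.0014 beside -0.10 over all genes) or Empa, beside 12.6% and 0.0063% called over all genes. The 3 were FCER1G, the shared signaling chain of several Fc receptors, TRIM21, an antibody receptor of the cytosol, and FCRLB. FCMR, the IgM receptor gene beside PIGR, which the array names FAIM3, did not pass with IL-1β (limma, adjusted p = 0.125) and was well above background on 9 arrays, so that no size is given. FCRL1 and FCRL6, relatives of the Fc receptors known from lymphocytes, were well above background on 8 arrays each. The classical IgG receptor genes FCGR2A and FCGR3A were well above background on 1 and 4 arrays, FCRL2 on 3, and MS4A2 and FCRLA on 2 each. FCRL5 was so through a probe other than its brightest. Of the immunoglobulin chains and other ligands, 3 are on the array. JCHAIN, which joins the units of polymeric IgA and IgM, was well above background on all 12 arrays with a log2 difference of -0.16 with IL-1β (limma, adjusted p = 0.684) and a mean level of -3.81, and ALB and CD5L were so on none.

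Among 17 tested partner and transcytosis genes, 2 fell and 0 rose with IL-1β, beside 12.6% called over all genes, with a list median of -0.26. RAB17, a small GTPase of epithelial transcytosis, fell by 2.79 (SE 0.21, limma adjusted p = 0.000233, lower on 4 of 4 slides). LRP2, which encodes the albumin receptor megalin of the proximal tubule, fell by 2.43 (SE 0.16, limma adjusted p = 0.000114, lower on 4 of 4 slides). B2M, the light chain partner of FCGRT and named here after its values were seen, had IL-1β differences of 1.04 in HK-2 replicate 1, 0.08 in HK-2 replicate 2, -0.25 in RPTEC/TERT1 replicate 1 and 0.80 in RPTEC/TERT1 replicate 2 (limma, adjusted p = 0.342). Its control levels were 5.54, 3.77, 3.88 and 5.86, so B2M and FCGRT were both high on the same pair of slides, and with IL-1β B2M was higher and FCGRT lower than control on 3 of 4 slides, by 0.08 for B2M on 1 of them.

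Of 9 tested transcription factors tied to PIGR or FCGRT, NFKB1, a subunit of NF-κB, rose with IL-1β (2.11, SE 0.42, limma adjusted p = 0.0140, higher on 4 of 4 slides), beside 12.6% of all genes called and 4.8% higher, and the list median was 1.09. Of 6 tested epithelial factors for IgA responses, 2 rose, beside the same 4.8% over all genes, with a list median of 1.00. CCL20, a chemokine for cells with the receptor CCR6, was higher (limma, adjusted p = 0.00283) but well above background on 8 arrays only, so that no size is given, and IL6 had a log2 difference of 6.96 (SE 0.82, limma adjusted p = 0.00148). Of 3 other proteins known to bind immunoglobulins, 2 rose, beside 4.8% over all genes, with a list median of 1.02, the transferrin receptor gene TFRC, whose product also binds IgA1 (1.96, SE 0.22, limma adjusted p = 0.00139), and LGALS3, the galectin-3 gene (1.02, SE 0.21, limma adjusted p = 0.0174). The IL-1β response controls NFKBIA, TNFAIP3 and CXCL8 rose (limma, adjusted p = 0.00152, 0.0136 and 0.00494), NFKBIA by 3.70, TNFAIP3 by 3.69 with values on 3 slides for IL-1β and CXCL8 with no size given, since 1 array was not well above background, while ICAM1 had 2.13 (adjusted p = 0.0505). With Empa 0 genes of these lists passed, and without the slide block 0 passed for either treatment.

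**Figure D2:**
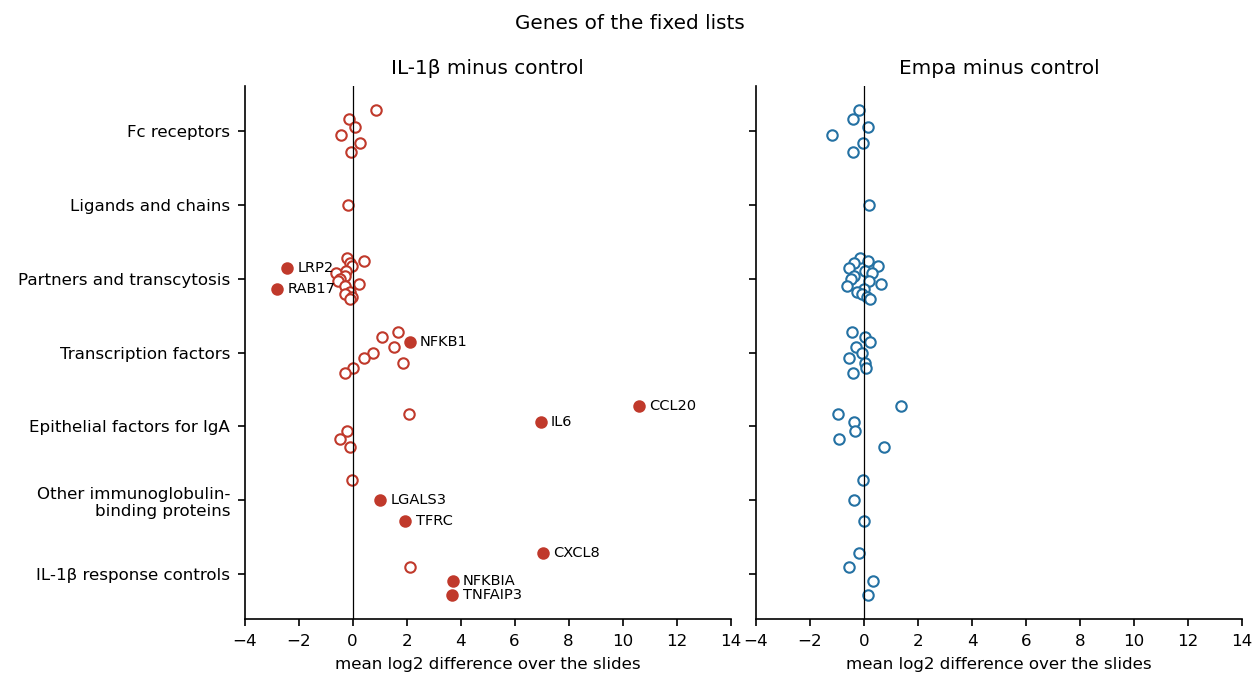
Mean log2 difference over the slides of each tested gene of 7 fixed lists, with 4 slides each except TNFAIP3 with 3 for IL-1β, IL-1β minus control on the left and Empa minus control on the right. Filled points passed a limma adjusted p of 0.05. The CCL20 point includes controls at the floor and has no measured size, RAB17 lies at -2.79 with IL-1β, and no point is filled for Empa.

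Around FCAMR and PIGR, 21 other gene names have a probe within 500 kb, and of 13 tested, 1 rose and 1 fell with IL-1β, beside 4.8% higher and 7.8% lower over all genes. DYRK3, a kinase gene, rose by 0.93 (SE 0.21, limma adjusted p = 0.0219, 4 of 4 slides), and C1orf116 fell by 1.80 (SE 0.44, limma adjusted p = 0.0314, 4 of 4 slides). The C1orf116 difference was -2.68 in HK-2 replicate 1 and -2.75 in RPTEC/TERT1 replicate 2. It was -1.05 in HK-2 replicate 2 and -0.72 in RPTEC/TERT1 replicate 1. After quantile normalization 1 was higher and 0 were lower. The list median was 0.47, beside -0.10 over all genes. Around FCGRT, 52 gene names were found, and of 42 tested 1 rose and 1 fell, beside 12.6% called over all genes, with a list median of -0.10 that equals that over all genes. These were IL4I1, an amino acid oxidase gene (4.48, SE 1.22, limma adjusted p = 0.0439), and PRRG2, a membrane protein gene that was lower and well above background on 7 arrays (limma, adjusted p = 0.0410). The IL4I1 mean joins unlike slides, with 7.80 in HK-2 replicate 1 and 7.43 in RPTEC/TERT1 replicate 2. It was 1.18 in HK-2 replicate 2 and 1.51 in RPTEC/TERT1 replicate 1.

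**Figure D3:**
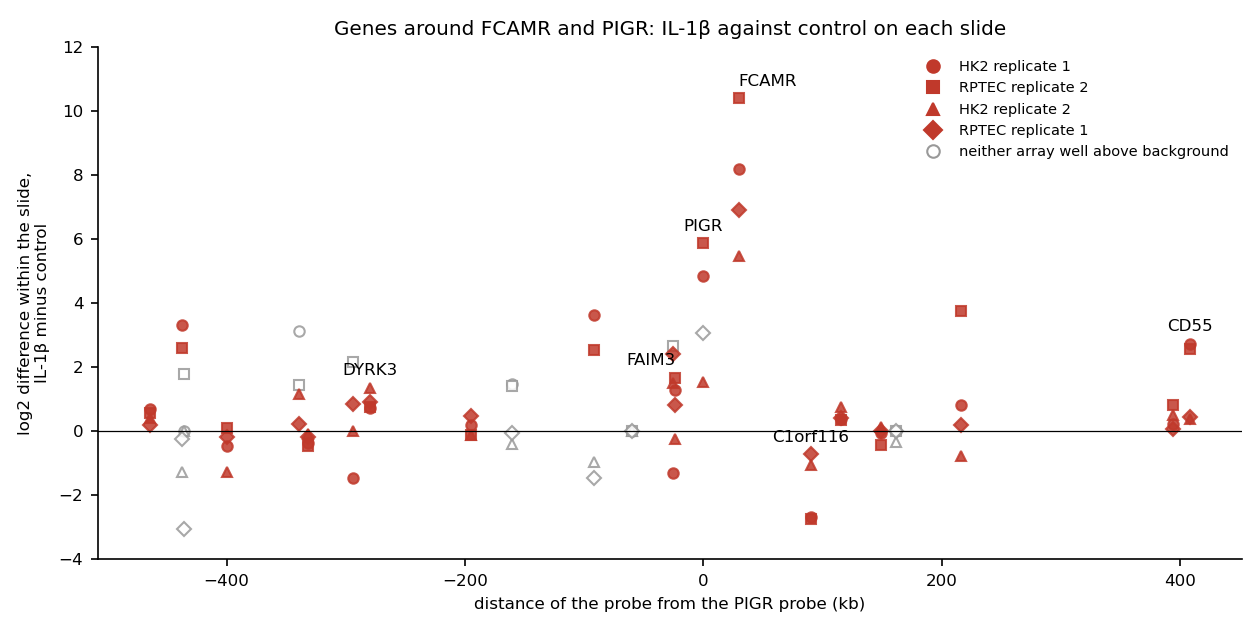
Log2 difference of IL-1β minus control within each slide for the genes around FCAMR and PIGR, against the distance of their probe from the PIGR probe in kb. Symbols are the 4 slides, and open gray points mark pairs in which neither array was well above background. The FCAMR and PIGR points are drawn against controls that were not well above background, so their heights are no measured sizes, and C1orf116 lies below 0 on each slide.

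The genes most like each member over the arrays were found by Pearson's r of log2 levels, over arrays that share slides and treatments, so their directions are not a separate result. For FCAMR these were SLCO2A1, a prostaglandin transporter gene (r = 0.990), TNFAIP6 (0.984), CXCL2 (0.976), ZC3H12A, an RNase gene that limits cytokine mRNA (0.974), and IQCD (0.972), over 12 arrays. For PIGR they included ARRDC1 (r = 0.983), LGALS3 (0.980), PDLIM4 (0.979) and SAT1 (0.973). Since 8 FCAMR and 9 PIGR levels are not well above background, these r rest in part on levels that were not measured. The same holds for TNFAIP6, well above background on 4 arrays, and PDLIM4, on 6, while the others named for FCAMR and PIGR were so on all 12. For FCGRT they were AMBP, CDH16, the cadherin of kidney tubules, C11orf49, CFI and C17orf97, with r from 0.993 to 0.995 over 11 arrays. This r rests on both the pair of slides and the treatment, and within the pairs it was 0.974 for CDH16 over the 5 arrays of HK-2 replicate 1 and RPTEC/TERT1 replicate 2. Over the 6 arrays of the others it was 0.936. AMBP was well above background on 7 arrays and CDH16 on all 12.

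**Figure D4:**
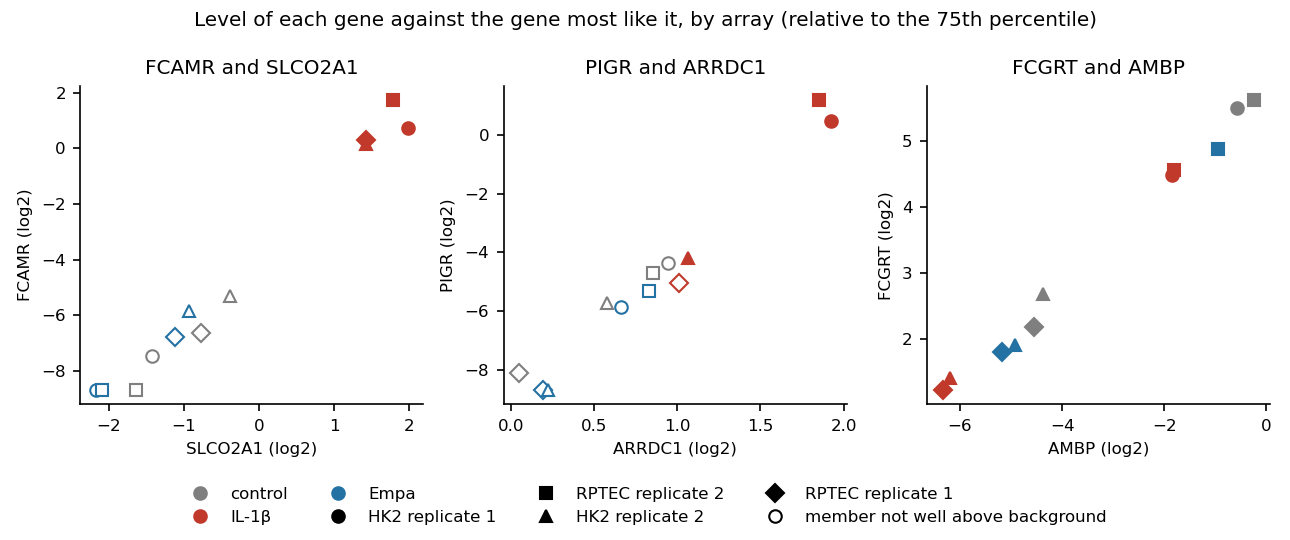
Level of FCAMR, PIGR and FCGRT against the gene with the highest r on each array, both in log2 relative to the 75th percentile. Colors are treatments, symbols are slides and open points are arrays on which the receptor was not well above background. FCAMR separates the 4 IL-1β arrays from the rest, PIGR separates the IL-1β arrays of HK-2 replicate 1 and RPTEC/TERT1 replicate 2 from the rest, and FCGRT falls into high and low slides with the control highest in each.

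Of 8 tested markers of the proximal tubule, 3 fell and 0 rose with IL-1β, beside 7.8% lower and 4.8% higher over all genes, with a list median of -0.54. These were LRP2 and the cadherin gene CDH6 (limma, adjusted p = 0.000692) and the phosphate transporter gene SLC34A1 (limma, adjusted p = 0.00583), the latter well above background on 4 arrays and CDH6 on 10, so that no size is given. ANPEP was not tested, and on the slides where it was well above background it was higher with IL-1β, at 1.07 against -1.18 in HK-2 replicate 1 and 0.88 against -1.36 in RPTEC/TERT1 replicate 2. Of 3 tested epithelial markers EPCAM fell (-0.97, SE 0.21, limma adjusted p = 0.0193), beside the same 7.8% lower over all genes. The log2 of the summed signal of the 14 proximal tubule markers was 3.59, 4.41 and 4.62 with no ligand, IL-1β and Empa in HK-2 replicate 1, and 3.55, 4.31 and 3.67 in RPTEC/TERT1 replicate 2. It was 3.62, 2.54 and 3.1 in HK-2 replicate 2 and 3.90, 2.73 and 3.23 in RPTEC/TERT1 replicate 1, so the sum was higher with IL-1β on the first pair of slides and lower on the others, while FCGRT was lower on each. These sums add probes of unlike binding strength and weigh the brightest most, so only the same sum is compared across arrays. By mean level the brightest probe was that of PAX8. On the slides with a lower sum CDH6 weighs heavily too. Its level was 3.14 without a ligand and 0.97 with IL-1β in RPTEC/TERT1 replicate 1, and 2.33 and 0.72 in HK-2 replicate 2. The part of the 14 proximal tubule markers in the FCGRT values was not tested. Of 6 markers of B cells and plasma cells, 5 were well above background on at least 1 array and 2 on all 12, and of 2 markers of follicular dendritic cells 1 was so on at least 1 array. In the lists of markers of the distal tubule, podocytes, B cells, T cells, myeloid cells, endothelium and fibroblasts, 1 to 4 genes each could be tested. Of these 0 passed for either treatment (limma), beside 12.6% called with IL-1β and 0.0063% with Empa over all genes. With so few genes tested, this count says little about these cell types. Of 5 distal tubule genes only UMOD could be tested, and in HK-2 replicate 1 the log2 of the summed signal of the 5 was 4.41 without a ligand and -0.21 with IL-1β, and in RPTEC/TERT1 replicate 2 it was 5.01 and -0.19. It was -1.86 and -2.50 in HK-2 replicate 2 and -2.41 and -2.57 in RPTEC/TERT1 replicate 1, and 3 of the 5 genes were well above background on no array. UMOD had a log2 difference of -0.39 (limma, adjusted p = 0.199), so the larger values of the sum come from the remaining gene, SLC12A1, which was not tested and was well above background on 6 arrays.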

How the data were processed

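The data are 12 Agilent one-color arrays. Per the file headers the intensity of each spot was background-subtracted by Feature Extraction, and the authors deposited it without any scaling across arrays. The authors deposited their own table as log2 values, quantile normalized by its name, and its medians per array, between 6.53 and 8.29, differ by slide. Signals were scaled to the 75th percentile of the array and raised to at least 1 signal unit. Outlier spots were left out, repeated spots were averaged, and probes with values on fewer than 11 arrays were dropped. For each gene the brightest probe that was well above background on each array of some group was tested with limma 3.58.1 in R 4.3.3, with the slide as a block and Benjamini-Hochberg adjustment over all genes at a threshold of 0.05, after a check on simulated data. Arrays of a slide deviated together from the means of their groups (r between 0.592 and 0.906), which is why replicate numbers were taken to pair them. With 2 arrays per group the deviations mirror each other, so both slides of a label give the same r. What the slide and the likeness of slides across the labels each add to these r was not tested. The slides of a replicate number were scanned on 1 day. The methods state a t-test for real-time PCR and ELISA and none for the arrays.

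The members and lists were chosen with earlier results of these data known. Of each list, up to 4 genes past the threshold, by size of change, were named, or else up to 2 with the highest level, with all Fc receptors above background, the IL-1β response controls, up to 4 genes within 500 kb and up to 5 genes most like each member. Alternatives were other blocks, normalizations, floors and filters, the authors' table, the methods' t-test and each array left out. The pairs of slides alone and values on all 12 arrays were added after seeing the data.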

Additional observations from a re-analysis of the deposited data

Results flagged for a closer look

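Of 89 series of 4 within-slide differences checked for the genes named, 4 held 1 slide far from the other 3 by Dixon's criterion, and chance alone marks about 5% of such series. None of them belongs to FCAMR or FCGRT with IL-1β. A series needed 4 usable slides, so PIGR under either treatment and FCAMR and FCGRT with Empa were not checked. ARRDC1, the gene most like PIGR, was 0.49 above control in HK-2 replicate 2 with IL-1β, and between 0.96 and 1.00 above it on the other slides. CFI, a complement factor gene among those most like FCGRT, was at -2.02 in HK-2 replicate 2 with IL-1β and between -1.44 and -1.37 elsewhere. With Empa, PODXL was 1.66 above control in HK-2 replicate 1 and between 0.69 and 0.79 above it on the other slides, and CD79A was 0.83 above control in RPTEC/TERT1 replicate 2 and between -0.54 and -0.42 elsewhere. The causes were not tested.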

How the results depend on the processing

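The number of genes called for IL-1β, 2000, moved to 7 without the replicate block, 873 with a replicate block and 1 effect per treatment and line, 668 with the slide as a random block and 42 with the methods' t-test. It was 0 with replicate number 1 alone and 0 with replicate number 2 alone, but 2503 with the slides of HK-2 replicate 1 and RPTEC/TERT1 replicate 2 alone and 1792 with the others alone. Leaving out 1 array gave 799 to 2985 genes, with 799 and 1057 without the controls of HK-2 replicates 1 and 2, 1293 and 808 without those of RPTEC/TERT1, and 1075 and 823 without the IL-1β arrays of HK-2 replicate 1 and RPTEC/TERT1 replicate 2. The Empa count of 1 was 2 with the methods' t-test, between 0 and 1 without single arrays, and 0 under both other blocks, without the replicate block, after normexp, in the authors' table, with a floor of 5 signal units, without a filter on dim probes, with probes well above background on all 12 arrays, with either replicate number alone and with either pair of slides alone. The cause was not tested. The differences between the labelled lines in the IL-1β and Empa effects kept a count of 0 with quantile normalization, in the authors' table and without the replicate block. Apart from leaving out single arrays, no other alternative was run for them. The control level, with a count of 0, gave 0 to 42 genes when single arrays were left out, with 11 and 42 without the controls of HK-2 replicates 1 and 2 and 1 without that of RPTEC/TERT1 replicate 1, where a label rests on 1 control.

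The second FCAMR probe was not well above background on any control or Empa array. Its mean Empa difference of -0.32 turned to 0.0093 after normexp and 0.14 with a floor of 5 signal units. With replicate number 1 alone it was 0.11, and with the slides of HK-2 replicate 2 and RPTEC/TERT1 replicate 1 alone 0.14. Leaving out single arrays gave -0.63 to 0.28, with 0.28 without the control or the Empa array of RPTEC/TERT1 replicate 2. The FCGRT difference with Empa was -1.37 without the replicate block, where the left-out outlier spot leaves slides of unlike level unbalanced. The mean treatment minus control differences of the other probes of FCAMR, PIGR and FCGRT kept their sign under each alternative run, but not their size. With IL-1β, FCAMR went from 7.73 to 3.34 after normexp and 2.97 in the authors' table, PIGR from 3.83 to 1.73 and 1.34, and the second FCAMR probe from 2.99 to 0.64 and 0.48, all against controls not well above background. Leaving out single arrays moved the FCGRT difference between the labelled lines from 0.02 to 0.27 for IL-1β, from -0.04 to 0.31 for Empa and from -1.91 to 1.52 for the control level. Without the replicate block the Empa value was 1.63 in place of 0.16.

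The filter asks for both arrays of a label, so a gene seen on 1 of the cross-label pairs of slides alone is not tested. Signal over background limits FCAMR and PIGR, whose controls have no measured level.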
